A study of Mus musculus with 16 samples.

Results

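The genes described are those of DNA replication and nucleotide synthesis, 43 mouse genes chosen by name: the factors that license and fire replication origins, the enzymes and clamps of the replication fork, and 4 enzymes that supply its building blocks. They were measured in whole embryonic hearts at E9.25 (22-24 somites) of embryos whose strain is given as C57/BL6;129Ola mixed. An annotated probe was present for 38 of the 43 genes, and all 59 probes of these 38 were detected on 2 or more of the 16 arrays. They are 38 of the 9697 genes with such a probe. Orc1, Gins1, Gins2, Rfc3 and Pola1 had no annotated probe and were not analysed here.

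Control hearts (n = 4) are labelled wild type. KO hearts (n = 3) were MesP1-cre:RBPJlox/lox, in which Rbpj, the DNA-binding protein of the Notch pathway, carries lox sites on both copies and the recombinase is driven by Mesp1, a gene of early mesoderm that includes heart precursors. DKO hearts (n = 4) were MesP1-cre:RBPJlox/lox//Axin2-/- and so also lacked Axin2, a scaffold protein that helps to destroy beta-catenin and so restrains Wnt signals. HetDKO hearts (n = 3) were MesP1-cre:RBPJlox/+//Axin2-/-, with 1 unfloxed Rbpj copy, and DKOhet hearts (n = 2) were MesP1-cre:RBPJlox/lox//Axin2+/-. All mutants carried MesP1-cre and the controls are not labelled as carrying it. Cells of the heart that do not descend from Mesp1-expressing mesoderm keep Rbpj in every group, whereas the Axin2 alleles are not restricted to a tissue. No probe was annotated to Rbpj or Axin2, so the genotypes were not checked by the signal of the targeted genes. KO, DKO and DKOhet are called Rbpj-deleted below, and control and hetDKO Rbpj-present.

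Replication begins when the origin recognition complex (Orc proteins), with Cdc6 and Cdt1, loads the ring of Mcm2 to Mcm7 onto DNA in G1 phase, a step called licensing. At the start of S phase the kinase Cdc7 with its activator Dbf4 brings Cdc45 and the GINS complex to the ring, which becomes the helicase that unwinds DNA. DNA polymerases then copy the strands with the sliding clamp Pcna, while ribonucleotide reductase (Rrm1 and Rrm2), thymidylate synthase (Tyms) and thymidine kinase (Tk1) make deoxynucleotides. Many of these genes are transcribed once per cell cycle, at the passage from G1 to S phase, by E2F factors bound near their start sites. In the heart tube at this stage cardiomyocytes divide while they contract.

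Promoter stretches of Mcm5, Mcm6, Mcm7, Cdc6 and Gins3 are shown because they hold an E2F word. That of Rrm2, the gene whose brightest probe differed most from control, holds none of these words but has a CCAAT box. Each stretch has 80 bases, lies before a RefSeq transcript start of its gene, is read along the strand of the gene, and has the matched word in capitals. The words searched, on both strands of the 250 bases before and 50 bases after each start, were TTTGGCGC, TTTGCCGC, TTTCGCGC and TTTCCCGC for E2F and CCAAT for the CCAAT box. The starts used for Mcm7 and Cdc6 lie inside the annotated span of the gene, so that their stretches do too. Matches that overlap, as in Mcm5 and the first of Mcm6, are in capitals as 1 run.
Mcm5: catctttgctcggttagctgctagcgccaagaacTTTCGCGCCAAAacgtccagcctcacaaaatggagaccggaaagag
Mcm6: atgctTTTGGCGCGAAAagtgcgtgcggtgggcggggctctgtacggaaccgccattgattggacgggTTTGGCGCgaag
Mcm7: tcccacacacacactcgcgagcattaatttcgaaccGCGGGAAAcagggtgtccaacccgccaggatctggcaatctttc
Cdc6: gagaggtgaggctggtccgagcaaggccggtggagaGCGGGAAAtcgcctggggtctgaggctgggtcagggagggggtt
Gins3: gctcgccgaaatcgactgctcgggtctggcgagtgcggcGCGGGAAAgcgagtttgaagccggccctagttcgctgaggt
Rrm2 (CCAAT in capitals): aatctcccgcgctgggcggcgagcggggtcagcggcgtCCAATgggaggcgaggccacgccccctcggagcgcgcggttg

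In the GRCm38.p6 build the stretches lie at chr8:75109322-75109401 (Mcm5, + strand), chr1:128359741-128359820 (Mcm6, - strand), chr5:138172005-138172084 (Mcm7, - strand), chr11:98907977-98908056 (Cdc6, + strand), chr8:95633479-95633558 (Gins3, + strand) and chr12:24708166-24708245 (Rrm2, + strand). RefSeq promoters were found for 36 of the 43 genes. An E2F word was present for 13 of these 36 genes (36.11%), against 704 of 27025 genes with a promoter (2.6%). The 13 were Cdc6, Cdt1, Gins3, Lig1, Mcm3, Mcm5, Mcm6, Mcm7, Orc1, Orc3, Pola1, Pold1 and Rfc3. Of 20 mitosis genes with a promoter, 1 held an E2F word. A CCAAT box was present for 22 of the 36 genes (61.11%), against 41.06% of all genes, and the word GTGGGAA, which RBPJ binds, for 5 (13.89%) against 7.25%. An E2F word was present for 4 of the 13 genes that were lower with Rbpj deleted, as given below (30.77%), and for 6 of the 20 other measured genes with a promoter (30.0%). A match describes letters and is not a bound site.

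The arrays detected 12360 to 13196 of 25696 probes each, with median raw intensities of 171 to 211.65. Values are log2 signals after background correction and quantile normalisation, so that a difference of 1 is a doubling, and each gene is given by its brightest probe unless another probe is named. Errors of group means are SD over arrays, and the number of arrays limits their precision. Array values are listed in the order of their replicate numbers, which the labels tie to no litter. Odd numbers were on beadchip 1 and even numbers on beadchip 2, except DKOhet replicate 1, on beadchip 2. On the second principal component all odd-numbered arrays, DKOhet replicate 1 included, had positive scores (5.12 to 23.59). All even-numbered arrays had negative scores (-30.24 to -8.67). The main model held no term for beadchip or replicate number, and both were used as blocks in alternatives. A difference was called where the limma p-value, adjusted over all 14058 detected probes, was below 0.05. Nothing in the labels ties an array to an embryo of its own, and p-values therefore measure spread between arrays that may be partly technical. In whole hearts, fewer cells of a type and less RNA per cell cannot be told apart. KO replicate 2 stood apart from the other arrays on the third principal component (45.78, against a next highest score of 15.86), and the KO differences of Rrm2, Mcm7 and the dim Mcm4 probes and the KO count are also given without it. Its signal for the only leukocyte marker read, Lyz2, was 876 on the linear scale, against 45.8 to 218 on the other arrays, and the part of leukocytes in its values was not tested.

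Over the 38 genes, differences were small and mostly downward in Rbpj-deleted hearts. The median log2 difference from control was -0.12 in KO, -0.22 in DKO and -0.19 in DKOhet hearts, and 0.02 in hetDKO hearts. The KO median was -0.07 without KO replicate 3, and the DKOhet median -0.30 without DKOhet replicate 2. Over all detected probes the same medians were -0.02, -0.02, -0.02 and 0.00. Array by array, the median over the 38 genes ran from -0.07 to 0.03 in control, -0.04 to 0.05 in hetDKO, -0.24 to 0.00 in KO, -0.30 to -0.13 in DKO and -0.30 to -0.15 in DKOhet hearts. Every DKO and DKOhet array therefore lay below every control and hetDKO array, and the KO arrays overlapped with control.

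**Figure D1:**
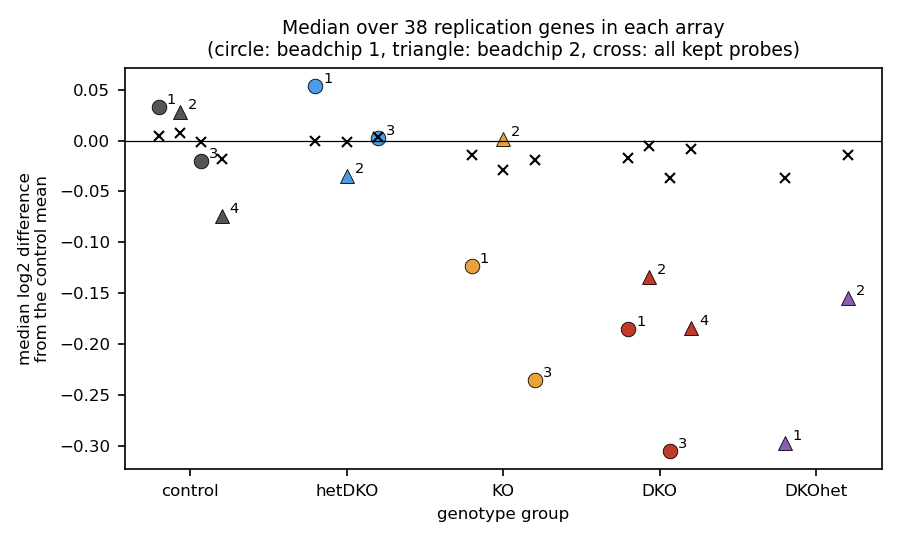
Median, over the 38 measured replication genes, of the log2 difference from the control mean, for each array (y axis) by genotype group (x axis). Circles are arrays of beadchip 1, triangles of beadchip 2, and crosses the median of all detected probes; DKO arrays lie between -0.30 and -0.13 and control arrays between -0.07 and 0.03.

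In DKO against control, 4 of 38 genes were lower and none was higher, where 6.51% of all probes were called lower, 6.68% higher and 13.2% in either direction. In KO against control 2 were lower and none higher, with 3.97% of all probes lower, 3.61% higher and 7.58% called in all. In DKOhet against control 5 were lower and none higher, with 4.32% of all probes lower, 4.3% higher and 8.61% called in all. The shares of the 38 called, all of them lower, were thus 5.26% in KO, 10.5% in DKO and 13.2% in DKOhet hearts. Each was above the share of all probes called lower. The KO and DKO shares were below the share of all probes called in either direction. These shares rest on 2, 4 and 5 genes. An unadjusted p below 0.05 was reached by 10 of the 38 in KO, 13 in DKO and 14 in DKOhet hearts, in either direction. Setting the 9 Rbpj-deleted arrays against the 7 Rbpj-present arrays as means of group means, called the pooled comparison here, 13 genes were lower and 1 was higher, where 14.3% of all probes were called lower and 12.2% higher (26.4% in all). The 13 were Rrm2, Fen1, Mcm5, Gins3, Rpa1, Rpa2, Mcm7, Tk1, Tyms, Orc5, Cdc45, Pola2 and Cdc6, and the gene that was higher was Cdt1.

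Groups were also set against each other by whether their arrays overlapped. All DKO arrays lay below all control arrays for 9 of the 38 genes and above for 1, where this held for 9.96% and 9.3% of all probes. The counts were 5 below and 2 above in KO (10.7% and 9.61% of all probes) and 13 below and 1 above in DKOhet hearts (16.1% and 14.5%). HetDKO arrays lay below control for 1 gene and above for 1 (2.74% and 2.53%). DKO arrays lay below hetDKO arrays for 11 genes and above for 2 (13.4% and 12.8%). All Rbpj-deleted arrays lay below all Rbpj-present arrays for 2 genes, Mcm5 and Fen1, and above for none (3.03% and 3.12%).

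HetDKO hearts did not differ detectably from control: limma called none of the 38 genes and 0% of all probes (0 of 14058), 2 of the 38 had an unadjusted p below 0.05, and 545 of all probes did. In a simulation of this comparison a change of 0.5 was recovered for 24% of probes and a change of 1 for 70%, so differences of the size described here could have been missed.

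**Figure D2:**
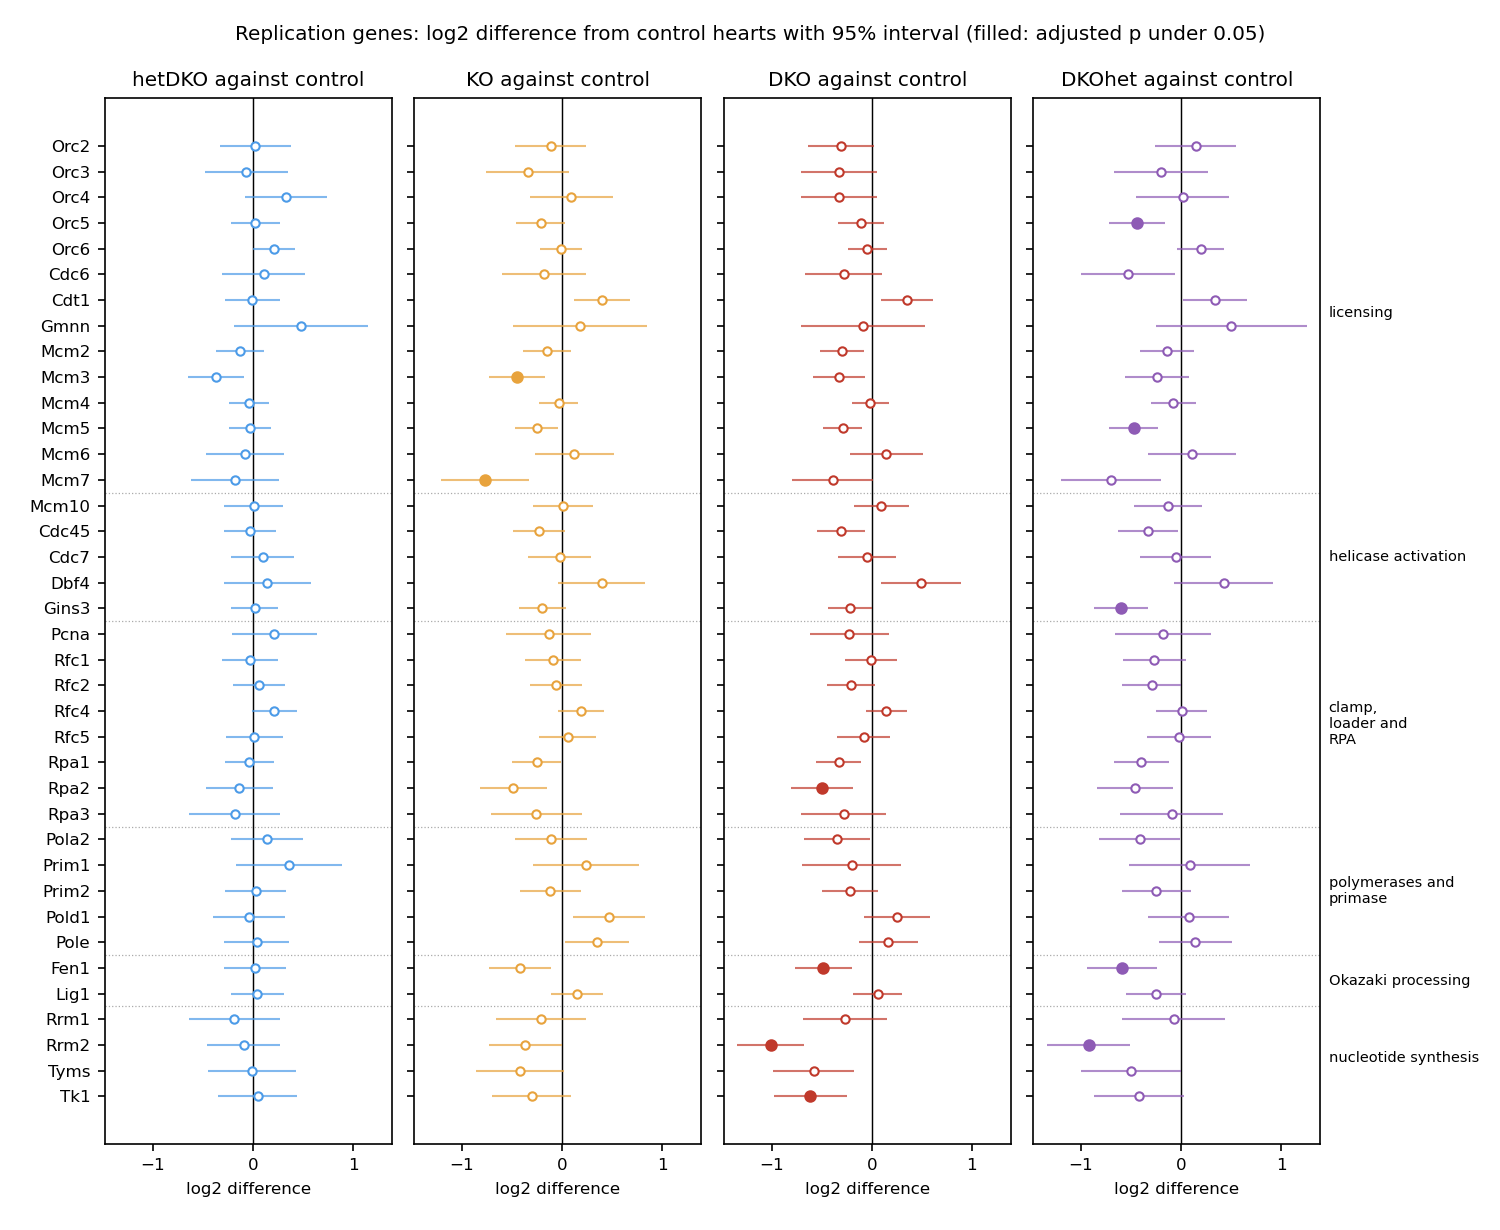
Log2 difference from control (x axis) of each measured replication gene (y axis) in the mutant groups, one panel per group. Points are limma estimates with 95% intervals, filled where the adjusted p was below 0.05; most estimates lie below 0 in the 3 Rbpj-deleted groups, and hetDKO estimates lie around 0 with a median of 0.02.

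Rrm2, the small subunit of ribonucleotide reductase, showed the largest difference from control among the brightest probes of the genes. The dim probes of Mcm4, given below, differed by more in KO hearts. Rrm2 lies on chromosome 12 at 24708254 to 24714146 in GRCm38.p6. Its brighter probe, ILMN_2714565, read 11.57, 11.86, 12.04 and 11.94 on the control arrays and 11.68, 11.81 and 11.78 on the hetDKO arrays. It read 11.49, 11.85 and 11.10 on the KO arrays, 10.84, 11.13, 10.64 and 10.76 on the DKO arrays and 11.01 and 10.85 on the DKOhet arrays. All DKO and DKOhet arrays lay below all control and hetDKO arrays, whereas KO replicate 2, at 11.85, lay at the level of the controls. DKO hearts were 2.01-fold lower than control (10.84 ± 0.21 against 11.85 ± 0.20, log2 difference -1.01 ± 0.16 (SE), limma adjusted p = 0.00132). DKOhet hearts were 1.90-fold lower (limma adjusted p = 0.0111), and this difference missed the threshold when either DKOhet array was left out (limma adjusted p 0.0646 to 0.0766). The KO mean was -0.37 from control (limma adjusted p = 0.195) and -0.56 without KO replicate 2 (limma adjusted p = 0.0723).

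Against hetDKO hearts, which share the loss of Axin2, DKO hearts were 1.89-fold lower in Rrm2 (limma adjusted p = 0.00538). The DKO mean was also -0.64 ± 0.17 (SE) from KO (-0.45 without KO replicate 2), but no adjusted call was made (limma adjusted p = 0.977). The difference between DKO and hetDKO minus that between KO and control was -0.55 (-0.36 without KO replicate 2), which was not called either (limma adjusted p = 0.938). These differences are not alike, since hetDKO hearts carry MesP1-cre and a floxed Rbpj copy and controls are labelled wild type. Within beadchip 1 the DKO difference from control was -1.06 (limma adjusted p = 0.0456) and within beadchip 2 it was -0.95 (limma adjusted p = 0.191), with 2 arrays of each group on each chip.

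The second Rrm2 probe, ILMN_2819319, gave a smaller difference. It read 11.46, 11.45, 11.59 and 11.43 on control and 11.57, 11.49 and 11.43 on hetDKO arrays. It read 10.99, 11.63 and 10.82 on KO, 11.04, 11.41, 10.54 and 11.04 on DKO and 10.98 and 10.99 on DKOhet arrays. Every DKO array lay below every control array here too, but DKO replicate 2 by only the distance from 11.41 to 11.43. The DKO difference from control was -0.47 (limma adjusted p = 0.0952) and the DKOhet difference -0.50 (limma adjusted p = 0.171), neither called. Only the comparison of all Rbpj-deleted with all Rbpj-present hearts was called with this probe (-0.44, limma adjusted p = 0.0225).

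The gap between the probes, first minus second within each array, was itself compared between groups, a test chosen after the values were seen. It was 0.37 ± 0.18 in control, 0.33 ± 0.15 in KO, 0.26 ± 0.13 in hetDKO, -0.17 ± 0.18 in DKO and -0.06 ± 0.12 in DKOhet hearts. The gap in every DKO array was below that in every control array (exact two-sided permutation test, difference -0.54, p = 0.0286, the smallest that 4 against 4 arrays can give). The margin was thin, from 0.105 in DKO replicate 3 to 0.107 in control replicate 1. Over the 6 comparisons tested the adjusted p was 0.114. Since the unadjusted p was already the smallest possible, a wider separation could not have lowered it, and the adjusted p depended on the other comparisons. The correction therefore does not decide whether the probes disagreed in DKO. The gap in every DKO array was also below that in every KO array (lowest 0.219, exact permutation p = 0.0571). It was below that in every hetDKO array too, by a thin margin (lowest 0.112, exact permutation p = 0.0571). For KO against control the difference of gaps was -0.04 (exact permutation p = 0.743). Where the probes lie on the transcript was not analysed here.

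**Figure D3:**
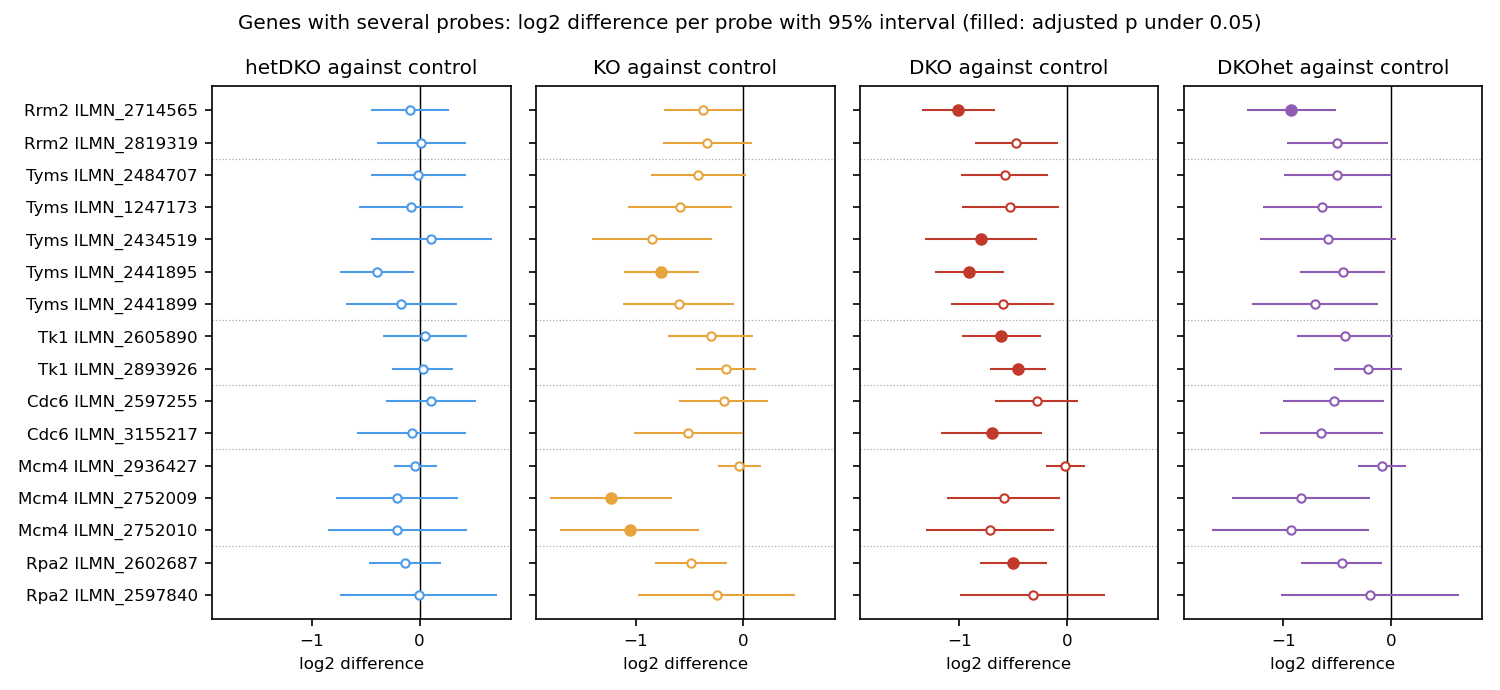
Log2 difference from control (x axis) of each probe of Rrm2, Tyms, Tk1, Cdc6, Mcm4 and Rpa2 (y axis), one panel per mutant group, with 95% limma intervals and filled points where the adjusted p was below 0.05. The Rrm2 probes lie at -1.01 and -0.47 in DKO hearts, and the Mcm4 probes at -0.04, -1.06 and -1.23 in KO hearts.

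Tk1, the thymidine kinase that salvages thymidine in S phase, was lower in DKO hearts with both of its probes. The brighter probe read 11.93, 11.70, 11.93 and 12.39 in control and 12.02, 12.19 and 11.90 in hetDKO hearts. It read 11.44, 12.14 and 11.46 in KO, 11.44, 11.51, 11.20 and 11.36 in DKO and 11.45 and 11.68 in DKOhet hearts. The DKO arrays lay below all control and hetDKO arrays. The DKO difference was 1.53-fold against control (-0.61, limma adjusted p = 0.0305) and 1.58-fold against hetDKO (-0.66, limma adjusted p = 0.0412). The first missed the threshold without control replicate 1, 3 or 4 or DKO replicate 1, 3 or 4 (-0.63 to -0.48, limma adjusted p 0.051 to 0.0894), and the second without any 1 of its 7 arrays (-0.73 to -0.58, limma adjusted p 0.0513 to 0.137). The dimmer probe, ILMN_2893926, differed by -0.46 in DKO against control (limma adjusted p = 0.0253) and by -0.48 against hetDKO (limma adjusted p = 0.0372).

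Tyms, which makes thymidylate, had 5 probes, and all 5 estimates were below 0 in KO, DKO and DKOhet hearts. The brightest read 13.14, 13.20, 13.47 and 14.09 in control and 13.53, 13.43 and 13.44 in hetDKO hearts, against 12.85, 13.21 and 13.11 in KO, 12.87, 13.19, 12.63 and 12.88 in DKO and 12.77 and 13.19 in DKOhet hearts. Control replicate 4 was the highest of all arrays, and the control and DKO arrays overlapped (lowest control 13.14, highest DKO 13.19). Its differences of -0.42 in KO and -0.58 in DKO were not called (limma adjusted p = 0.226 and 0.0573). With replicate number as a block, which fits the arrays of control and DKO as pairs, the DKO difference was called (-0.58, limma adjusted p = 0.0375). The pooled difference was called (-0.49, limma adjusted p = 0.0174), and it missed the threshold without DKOhet replicate 1 (-0.42, limma adjusted p = 0.0621). Of the dimmer probes, ILMN_2441895 was called lower in KO (-0.76, limma adjusted p = 0.0134) and in DKO hearts (-0.91, limma adjusted p = 0.00192). On average ILMN_2441895 read 7.96 in control, 7.57 in hetDKO, 7.52 in DKOhet, 7.20 in KO and 7.06 in DKO hearts. ILMN_2434519, detected on 11 of 16 arrays, was called in DKO against control (-0.80, limma adjusted p = 0.0428) and against hetDKO (-0.91, limma adjusted p = 0.0465). In hetDKO hearts the mean of every Tyms probe but ILMN_2434519 (7.34 against 7.23) lay below that of control. Rrm1, the large subunit of ribonucleotide reductase, was not called in any comparison (-0.21 in KO, -0.27 in DKO and -0.07 in DKOhet hearts).

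**Figure D4:**
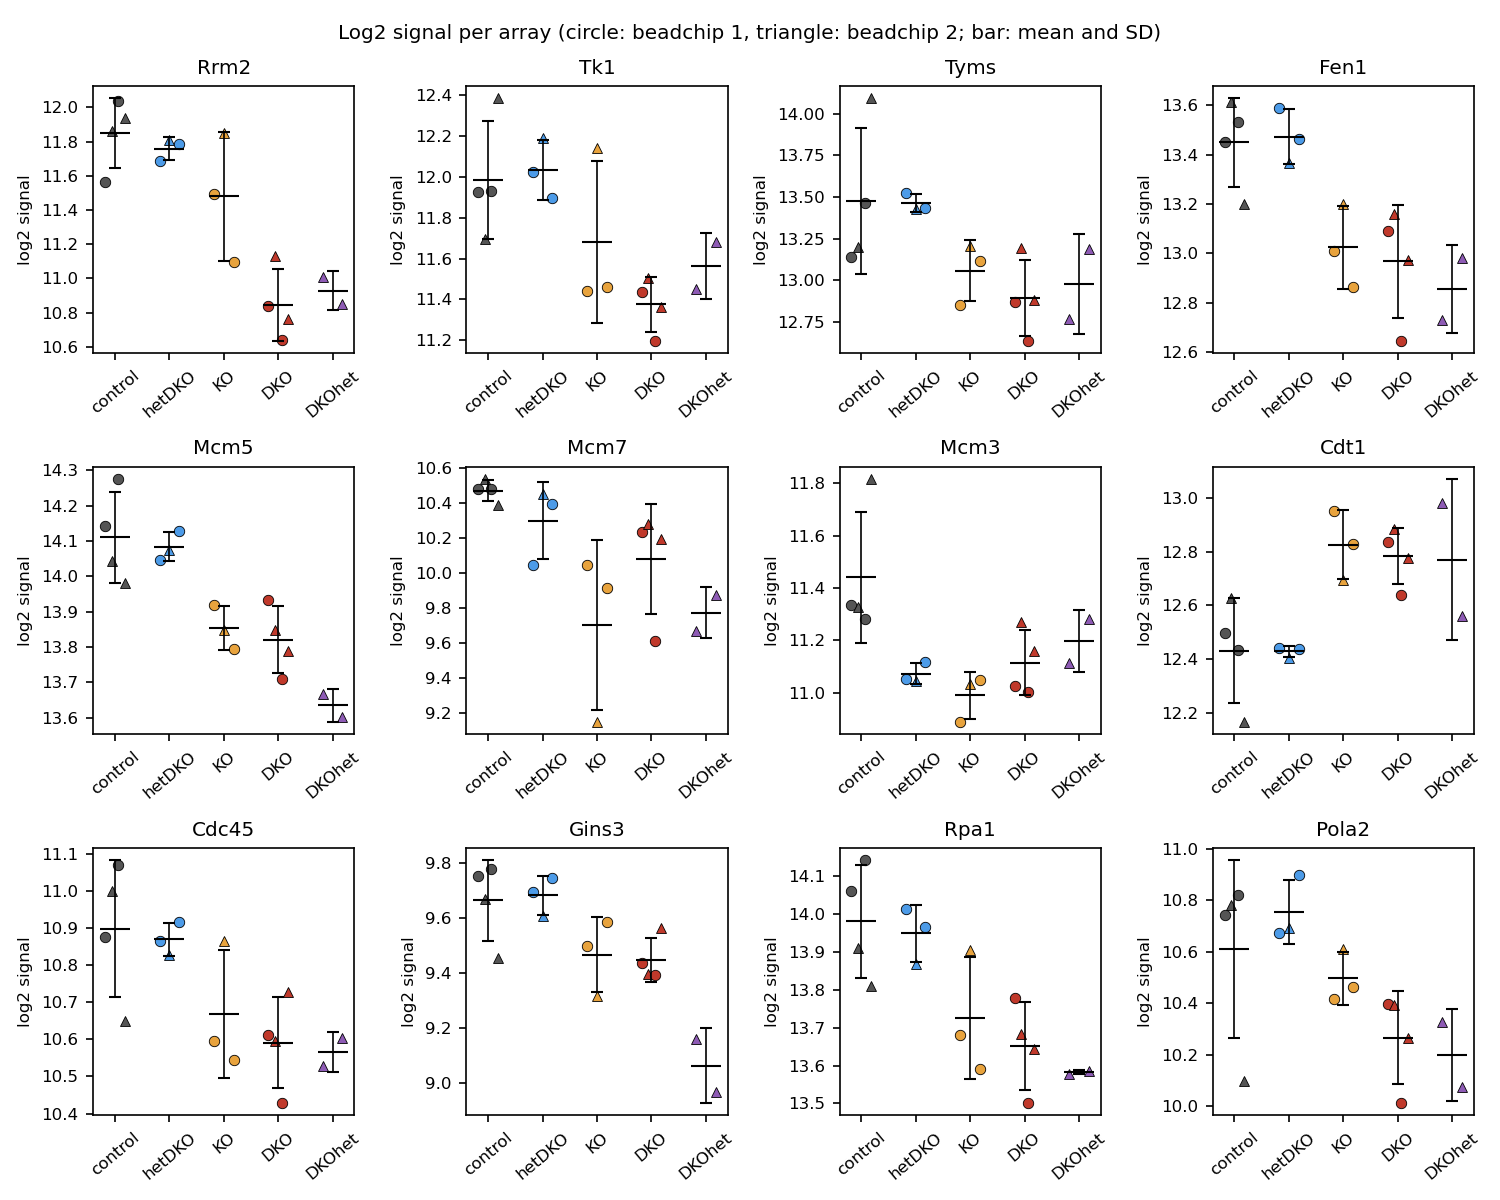
Log2 signal (y axis) on each array of Rrm2, Tk1, Tyms, Fen1, Mcm5, Mcm7, Mcm3, Cdt1, Cdc45, Gins3, Rpa1 and Pola2, by genotype group (x axis). Circles are arrays of beadchip 1, triangles of beadchip 2, and bars the group mean and SD. The 4 DKO arrays of Rrm2 sit between 10.64 and 11.13, all below the control arrays at 11.57 to 12.04.

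Among the licensing genes, 14 were measured, 2 were lower in KO, none in DKO and 2 in DKOhet hearts, and none was higher. Of all probes, 3.97%, 6.51% and 4.32% were called lower in these groups. The KO genes were Mcm3 and Mcm7, both parts of the Mcm ring. Mcm7 lies on chromosome 5 at 138164583 to 138172111. It read 10.48, 10.54, 10.48 and 10.39 in control and 10.05, 10.45 and 10.40 in hetDKO hearts. It read 10.04, 9.15 and 9.92 in KO, 10.24, 10.28, 9.61 and 10.20 in DKO and 9.67 and 9.88 in DKOhet hearts. All Rbpj-deleted arrays lay below all control arrays, with KO replicate 2 the lowest at 9.15. The KO difference was 1.71-fold lower (-0.77, limma adjusted p = 0.0367). It missed the threshold without control replicate 1, 2 or 3 or KO replicate 2 or 3 (-0.88 to -0.49, limma adjusted p 0.0514 to 0.128). With replicate number as a block it was not called either. Without KO replicate 2 it was -0.49 (limma adjusted p = 0.128). The pooled difference of -0.53 (limma adjusted p = 0.0114) was kept without each array in turn.

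Mcm3 read 11.34, 11.33, 11.28 and 11.82 in control, 10.89, 11.03 and 11.05 in KO and 11.03, 11.27, 11.00 and 11.16 in DKO hearts. It read 11.05, 11.05 and 11.12 in hetDKO and 11.11 and 11.28 in DKOhet hearts. All mutant arrays, those of hetDKO included, lay below all control arrays, DKOhet replicate 2 by less than the rounding, and control replicate 4 stood above the other 3 controls. The KO difference of -0.45 (limma adjusted p = 0.0497) missed the threshold without any 1 of the 7 arrays (-0.50 to -0.32, limma adjusted p 0.0576 to 0.157). With replicate number as a block it was not called either. Unlike the brightest probes of the other called genes, that of Mcm3 had an estimate of -0.37 in hetDKO hearts, close to that of DKO (-0.33). Neither was called (limma adjusted p = 0.998 and 0.0887). The dimmer Tyms probe ILMN_2441895 also read lower in hetDKO than in control hearts (means 7.57 against 7.96).

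Mcm5 was called in DKOhet hearts and over all Rbpj-deleted hearts. It read 14.14, 14.04, 14.28 and 13.98 in control and 14.05, 14.08 and 14.13 in hetDKO hearts. It read 13.92, 13.85 and 13.79 in KO, 13.93, 13.85, 13.71 and 13.79 in DKO and 13.67 and 13.60 in DKOhet hearts. The 9 Rbpj-deleted arrays (13.60 to 13.93) all lay below the 7 Rbpj-present arrays (13.98 to 14.28). The DKOhet difference was -0.48 (limma adjusted p = 0.0201), and it missed the threshold without control replicate 3 or either DKOhet array (-0.51 to -0.42, limma adjusted p 0.0533 to 0.104). Over all Rbpj-deleted hearts it was 1.25-fold lower (-0.33, limma adjusted p = 0.00285).

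The probes of Mcm4 disagreed. Its bright probe, ILMN_2936427, read 14.53, 14.56, 14.43 and 14.43 in control, 14.50, 14.50 and 14.35 in KO and 14.49, 14.49, 14.42 and 14.50 in DKO hearts, and 14.50, 14.39 and 14.45 in hetDKO and 14.31 and 14.51 in DKOhet hearts. The groups overlapped, and the KO difference was -0.04 with a 95% interval of -0.24 to 0.16. The dim probe ILMN_2752009 read 7.52, 7.91, 7.58 and 7.81 in control and 6.97, 5.98 and 6.47 in KO hearts, with a difference of -1.23 (limma adjusted p = 0.0138), with 1 of 3 KO arrays detected. The dim probe ILMN_2752010 differed by -1.06 in KO hearts (limma adjusted p = 0.0462), with 2 of 3 KO arrays detected and KO replicate 2 the lowest at 6.07. Without KO replicate 2 the KO differences of these dim probes were -0.99 and -0.61, and neither was called (limma adjusted p = 0.0563 and 0.156). The size of the KO falls therefore rests in part on values near background. All DKO and DKOhet arrays were detected with both dim probes and lay below all control arrays. ILMN_2752009 read 6.59 to 7.49 in DKO and 6.85 to 6.89 in DKOhet hearts. ILMN_2752010 read 6.72 to 7.66 in DKO and 7.09 to 7.12 in DKOhet hearts, against 7.83 to 8.19 in control. The hetDKO arrays overlapped with control for both (6.93 to 7.86 and 7.41 to 8.11).

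Cdt1, which loads the Mcm ring with Cdc6, was the member that was higher. It read 12.50, 12.63, 12.44 and 12.17 in control and 12.44, 12.40 and 12.44 in hetDKO hearts. It read 12.95, 12.70 and 12.83 in KO, 12.83, 12.88, 12.64 and 12.78 in DKO and 12.98 and 12.56 in DKOhet hearts. All KO and DKO arrays lay above all Rbpj-present arrays, and DKOhet replicate 2 did not. Cdt1 was 1.29-fold higher in the pooled comparison (0.36, limma adjusted p = 0.00786). The estimates for the single groups, 0.39 in KO, 0.35 in DKO and 0.34 in DKOhet, were not called (limma adjusted p = 0.0804, 0.0696 and 0.168). Gmnn, the inhibitor of Cdt1, had a probe detected on 11 of 16 arrays and was not called (-0.04 in the pooled comparison).

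Cdc6, which works beside Cdt1, read 11.61, 11.98, 11.85 and 11.67 in control and 11.88, 11.95 and 11.83 in hetDKO hearts. It read 11.71, 11.77 and 11.31 in KO, 11.45, 11.87, 10.96 and 11.72 in DKO and 11.04 and 11.45 in DKOhet hearts. DKO replicate 3 was the lowest of all arrays, and the DKO and control arrays overlapped. In the pooled comparison it differed by -0.39 (limma adjusted p = 0.0424), and it missed the threshold without control replicate 2 or 3, KO replicate 3, DKO replicate 1, hetDKO replicate 1, 2 or 3, or DKOhet replicate 1 (-0.40 to -0.32, limma adjusted p 0.06 to 0.132). Its dim second probe, ILMN_3155217, was called lower in DKO hearts (-0.70, limma adjusted p = 0.0481).

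Orc5, a subunit of the origin recognition complex, read 11.24, 11.47, 11.14 and 11.35 in control and 11.32, 11.42 and 11.24 in hetDKO hearts. It read 11.09, 11.21 and 10.96 in KO, 11.11, 11.26, 11.05 and 11.35 in DKO and 10.93 and 10.79 in DKOhet hearts. The DKOhet arrays were the lowest of all, and the DKO arrays overlapped with control. The DKOhet difference was -0.44 (limma adjusted p = 0.0493), and it missed the threshold without any 1 of its 6 arrays (-0.52 to -0.37, limma adjusted p 0.0546 to 0.227). With the second probe of Orc5, ILMN_1221363, the DKOhet difference was -0.29 and was not called, whereas the pooled difference was called. The pooled difference was -0.27 (limma adjusted p = 0.02), and -0.25 without hetDKO replicate 2 or DKOhet replicate 2 (limma adjusted p 0.054 to 0.0555). The other licensing genes (Mcm2, Mcm6, Orc2, Orc3, Orc4 and Orc6) were not called in any comparison, with pooled estimates from -0.26 in Orc3 to 0.16 in Mcm6. Mcm6, whose promoter holds the E2F words shown above, is a subunit of the same ring as Mcm5 and Mcm7.

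Of the 5 helicase activation genes measured, Gins3 was lower in DKOhet hearts, and Gins3 and Cdc45 were lower over all Rbpj-deleted hearts. Gins3, a subunit of the GINS complex, read 9.75, 9.67, 9.78 and 9.45 in control and 9.69, 9.61 and 9.75 in hetDKO hearts. It read 9.50, 9.32 and 9.59 in KO, 9.44, 9.40, 9.39 and 9.56 in DKO and 9.16 and 8.97 in DKOhet hearts. Both DKOhet arrays lay below every other array. The DKOhet difference was 1.52-fold (-0.60, limma adjusted p = 0.0111), and it missed the threshold without DKOhet replicate 2 (-0.51, limma adjusted p = 0.09). Between DKO and DKOhet hearts the difference was 0.39 with a 95% interval of 0.12 to 0.65 and was not called (limma adjusted p = 1).

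Cdc45, which completes the helicase with GINS, read 10.87, 11.00, 11.07 and 10.65 in control and 10.87, 10.83 and 10.92 in hetDKO hearts. It read 10.60, 10.87 and 10.55 in KO, 10.61, 10.60, 10.43 and 10.73 in DKO and 10.53 and 10.60 in DKOhet hearts. The pooled difference was -0.27 (limma adjusted p = 0.0237) and -0.26 without hetDKO replicate 3 or DKOhet replicate 1 (limma adjusted p 0.0573 to 0.0602). Dbf4, the activator of the Cdc7 kinase, had positive estimates, 0.39 in KO, 0.49 in DKO and 0.42 in DKOhet hearts, none of them called (limma adjusted p = 0.252, 0.0985 and 0.271). Its control arrays were spread from 11.53 to 12.34 and its DKO arrays from 11.85 to 12.59, so the groups overlapped. With replicate number as a block the DKO difference of Dbf4 was called (0.49, limma adjusted p = 0.0274). Cdc7 and Mcm10 were not called in any comparison, with pooled estimates of -0.09 and -0.01.

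Of the 8 clamp, clamp loader and RPA genes, Rpa2 was lower in DKO hearts, and Rpa1 and Rpa2 were lower over all Rbpj-deleted hearts. Both belong to replication protein A, which coats single-stranded DNA. Rpa2 read 11.24, 11.39, 11.33 and 11.72 in control and 11.16, 11.19 and 11.51 in hetDKO hearts. It read 10.95, 11.09 and 10.75 in KO, 11.19, 11.04, 10.69 and 10.76 in DKO and 10.85 and 11.08 in DKOhet hearts. All Rbpj-deleted arrays lay below all control arrays, and DKO replicate 1, at 11.19, lay at the level of 2 hetDKO arrays. The DKO difference was 1.41-fold (-0.50, limma adjusted p = 0.0362), and it missed the threshold without control replicate 2, 3 or 4 or DKO replicate 3 or 4 (-0.53 to -0.40, limma adjusted p 0.0591 to 0.11). A dimmer second probe, ILMN_2597840, gave -0.32 and was not called (limma adjusted p = 0.549), with control arrays spread from 9.21 to 10.92.

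Rpa1 read 14.06, 13.91, 14.14 and 13.81 in control and 14.01, 13.87 and 13.96 in hetDKO hearts. It read 13.68, 13.90 and 13.59 in KO, 13.78, 13.68, 13.50 and 13.64 in DKO and 13.58 and 13.59 in DKOhet hearts. All DKO and DKOhet arrays lay below all Rbpj-present arrays, and KO replicate 2, at 13.90, lay among them. Its pooled difference was -0.31 (limma adjusted p = 0.0087) and the DKO difference -0.33 (limma adjusted p = 0.0533). The remaining genes of this role, Pcna, Rfc1, Rfc2, Rfc4, Rfc5 and Rpa3, were not called in any comparison, with pooled estimates from -0.29 for Pcna, the sliding clamp, to 0.01 for Rfc4, a subunit of its loader.

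Of the 5 polymerase and primase genes, none was called in a single group. Pola2, the second subunit of DNA polymerase alpha, read 10.75, 10.78, 10.82 and 10.10 in control and 10.68, 10.69 and 10.90 in hetDKO hearts. It read 10.42, 10.61 and 10.46 in KO, 10.40, 10.39, 10.01 and 10.27 in DKO and 10.33 and 10.07 in DKOhet hearts. Control replicate 4 lay below all KO arrays and within the DKO range. Pola2 had a pooled difference of -0.36 (limma adjusted p = 0.0281), and it missed the threshold without control replicate 1, 2 or 3, hetDKO replicate 3 or DKOhet replicate 2 (-0.34 to -0.32, limma adjusted p 0.0542 to 0.078). Pold1, the catalytic subunit of DNA polymerase delta, had estimates of 0.46 in KO and 0.25 in DKO hearts, not called (limma adjusted p = 0.103 and 0.303), with control arrays at 12.26, 12.12, 12.29 and 11.47. Pole, the catalytic subunit of DNA polymerase epsilon, and the primase genes Prim1 and Prim2 had pooled estimates of 0.20, -0.14 and -0.21, none called.

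The Okazaki processing genes are Fen1, the nuclease that trims the flaps of lagging-strand fragments, and Lig1, the ligase that joins them. Fen1 lies on chromosome 19 at 10199132 to 10204393. It read 13.45, 13.61, 13.53 and 13.20 in control and 13.59, 13.37 and 13.46 in hetDKO hearts. It read 13.01, 13.20 and 12.87 in KO, 13.09, 13.16, 12.65 and 12.97 in DKO and 12.73 and 12.98 in DKOhet hearts. The highest Rbpj-deleted array, KO replicate 2, and the lowest Rbpj-present array, control replicate 4, both read 13.20 after rounding, and all other arrays lay further apart. DKO hearts were 1.40-fold lower than control (-0.48, limma adjusted p = 0.03) and 1.42-fold lower than hetDKO (-0.51, limma adjusted p = 0.0458). DKOhet hearts were 1.51-fold lower than control (-0.59, limma adjusted p = 0.039), and the KO estimate of -0.42 was not called (limma adjusted p = 0.0875).

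The DKO call for Fen1 was lost without control replicate 1, 2 or 3 or DKO replicate 3 or 4 (-0.48 to -0.37, limma adjusted p 0.0622 to 0.0947). The call against hetDKO was lost without DKO replicate 1, 3 or 4 or any hetDKO array (-0.56 to -0.40, limma adjusted p 0.0591 to 0.165). With replicate number as a block it was lost too. The DKOhet call was lost without control replicate 1, 2 or 3 or either DKOhet array (-0.72 to -0.47, limma adjusted p 0.07 to 0.254). The pooled difference of -0.51, 1.43-fold (limma adjusted p = 0.00178), was kept without each array in turn. Lig1 was not called with any of its 4 probes, and its brightest probe gave 0.06 in DKO hearts with a 95% interval of -0.18 to 0.30.

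Comparisons between mutants addressed the part of Axin2. Limma called none of the 38 genes between DKO and KO hearts, where 0.0142% of all probes were called and 2 of the 38 had an unadjusted p below 0.05. It called none between DKO and DKOhet hearts, where 0% of all probes were called and 5 of the 38 had an unadjusted p below 0.05. In simulations a change of 0.5 was recovered for 22% of probes in DKO against KO and 6% in DKO against DKOhet. A change of 1 was recovered for 78% and 60%, so differences of the size described here could have been missed. Between DKO and hetDKO hearts, which differ in Rbpj, 3 genes were lower (Rrm2, Fen1 and Tk1) and none higher, with 3.78% of all probes lower, 4.08% higher and 7.86% called in all. The test of whether the Rbpj effect differs between Axin2 backgrounds called none of the 38 genes and 0.00711% of all probes, with 4 of the 38 at an unadjusted p below 0.05. The Rbpj effects set against each other there are not alike. HetDKO hearts carry MesP1-cre and a floxed Rbpj copy, whereas the controls beside KO are labelled wild type. DKO and KO share the control arrays in their comparisons with control, so their estimates are not independent.

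Single arrays carried part of the pattern. DKO replicate 3 was the lowest DKO array for 28 of the 38 genes, where it was the lowest for 30.0% of all detected probes. KO replicate 3 was the lowest KO array for 23 of the 38 genes, against 31.4% of all probes, and KO replicate 2 was the highest for 20, against 35.1% of all probes. Control replicate 4 was the lowest control array for 20 genes and the highest for 13, against 35.8% and 32.96% of all probes. Without DKO replicate 3, 2 of the 38 genes were called in DKO against control, and without KO replicate 2 none of the 38 was called in KO against control. These drops were not particular to those arrays. The DKO count was also 2 without control replicate 2, and 1 without control replicate 3 or DKO replicate 4. None was called in KO without control replicate 1, 2 or 3 or KO replicate 3 either.

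Genes of the same processes outside the 43 were described with lists drawn up for this purpose. Of 24 other replication fork genes measured, 3 were lower and 1 was higher in DKO against control, with a median of -0.12. The share called was 16.7%, near the 13.2% of all probes. Pold4, a small subunit of DNA polymerase delta, was higher by 1.02 (limma adjusted p = 0.00115), and by 1.07 in KO (limma adjusted p = 0.00216) and 1.24 in DKOhet hearts (limma adjusted p = 0.0019). Donson, a factor of helicase assembly, fell in DKO hearts (-0.59, limma adjusted p = 0.0087), as did Rnaseh2c (-0.54, limma adjusted p = 0.011), a subunit of RNase H2, and Chtf18 (-0.39, limma adjusted p = 0.0302), of an alternative clamp loader. Of 25 other nucleotide synthesis genes, 2 were lower and 1 was higher (12%, against 13.2% of all probes), with a median of -0.10. Dut, which removes dUTP, differed by -0.55 (limma adjusted p = 0.0163), Dtymk, which phosphorylates dTMP, by -0.45 (limma adjusted p = 0.0202), and Shmt2, of mitochondrial one-carbon metabolism, was higher by 0.55 (limma adjusted p = 0.0395). Of 7 genes of chromatin assembly and DNA methylation, Asf1b, a histone chaperone of dividing cells, was lower in KO (-0.72, limma adjusted p = 0.0026), DKO (-0.83, limma adjusted p = 0.000398) and DKOhet hearts (-0.83, limma adjusted p = 0.00257).

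Of 22 genes of E2F, Rb and G1/S control, 5 were lower and 1 was higher in DKO against control, with a median of -0.11. The share called was 27.3%, against 13.2% of all probes. Ccne2 and Ccne1, the E-type cyclins that drive entry into S phase, differed by -0.88 and -0.76 (limma adjusted p = 0.0104 and 0.0489). Also lower were E2f2 (-0.97, limma adjusted p = 0.0436), Tfdp1, the partner of E2F proteins on DNA (-0.50, limma adjusted p = 0.00454), and Cdkn1c, an inhibitor of cyclin-dependent kinases (-0.44, limma adjusted p = 0.0262). Myc, a transcription factor of growth, was higher by 0.40 (limma adjusted p = 0.0224). Of 15 mitosis genes, limma called none in DKO against control, with a median of -0.07 and 3 at an unadjusted p below 0.05. In the pooled comparison 4 of the 15 were lower (26.7%) and none higher, where 14.3% of all probes were called lower and 26.4% in either direction. Birc5, a regulator of chromosome segregation, was among the 4 (-0.31, limma adjusted p = 0.00563). The summed linear signal of the 15, to which bright probes add most, was 94697 to 98289 in control and 98563 to 103105 in hetDKO hearts. It was lower on all Rbpj-deleted arrays, at 87199.6 to 89549.5 in KO, 90168 to 93794 in DKO and 85502 to 90868 in DKOhet hearts.

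Markers of the cell types that a heart can hold were read beside these results. The summed linear signal of 6 cardiomyocyte markers was 78574 to 128628 in control, 54697 to 116254 in KO, 69308 to 108925 in DKO, 82422 to 98378 in hetDKO and 83760 to 115781 in DKOhet hearts, so the groups overlapped. Actc1, Myl7, Myh6, Myl4 and Nkx2-5, which define heart muscle, were detected on all arrays, and Ryr2 on 2. None of these markers and none of 5 endothelial markers was called in DKO against control. Markers of the epicardium, the outer layer that begins to cover the heart at this stage, differed. All 5 had positive estimates in every mutant group, hetDKO included (median 0.58, none called), and Krt19 (1.63, limma adjusted p = 0.000176) and Wt1 (1.04, limma adjusted p = 0.0447) were called in DKO hearts. Their summed signal was 2331 to 3999 in control, 3505 to 4772 in hetDKO, 5400 to 8256 in KO, 3776 to 11858 in DKO and 7249 to 9924 in DKOhet hearts.

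Erythroid markers were present in all groups, since embryonic blood fills the heart. The sum of 9 such markers was 212565 to 291187 in control, 217854 to 279425 in hetDKO, 248273 to 312432 in KO, 165433 to 270709 in DKO and 177430 to 244287 in DKOhet hearts. In DKO hearts 8 of the 9 estimates were below 0 with a median of -0.52 and none was called. Klf1, a transcription factor of red cell precursors, was called lower in the pooled comparison (-1.19, limma adjusted p = 0.0463). With the mean of the erythroid markers as a covariate, 1 of the 38 replication genes was called in DKO against control, Rrm2 at -0.95 (limma adjusted p = 0.00488), and 15 in the pooled comparison. With this covariate the median over the 38 genes in DKO was -0.22, as without it, and 10.4% of all probes were called, against 13.2% without it. Sums of 4 foregut endoderm markers, 3 hepatic and yolk sac endoderm markers and 1 leukocyte marker overlapped between control and DKO hearts (1943 to 3292 against 1501 to 2873, 342 to 3122 against 1306 to 2254, and 52.3 to 93.3 against 59.2 to 67.3). The part of any of these cell types in the lower replication genes was not tested.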

How the data were processed

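RNA was measured in 16 whole-heart samples, 1 array each, on 2 Illumina beadchips. Control, KO, DKO and hetDKO had 2 arrays each on beadchip 1. On beadchip 2, control, DKO and DKOhet had 2 arrays each and KO and hetDKO 1 each. Groups follow the genotype labels. The deposited table gives the authors' average bead intensity per probe and array, linear and without background removal, with its detection p-value, per the file headers. BeadStudio is the software named in the submitters' processing notes, with version and settings not given in the sources used. The authors' normalised value table, also intensity on a linear scale, was used only as an alternative.

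With limma 3.58.1 in R 4.3.3, background was removed by the normexp model, fitted through the detection p-values, with an offset of 16, and log2 values were quantile normalised, which makes folds of dim probes smaller. Probes with a detection p below 0.05 on at least 2 of 16 arrays were kept (14058 of 25696). Gene names are from the platform annotation, with 1 symbol per named probe. All 16 arrays entered 1 model of group means (11 residual and 3.52 prior degrees of freedom). The p-values are two-sided, with Benjamini-Hochberg adjustment over the kept probes of a comparison. A gene is given by its kept probe with the highest mean signal.

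On simulated arrays 22% of probes changed by 0.5 and 70% of those changed by 1 were recovered in KO against control. The shares were 30% and 70% for DKO, and 18% and 78% for DKOhet hearts, each against control. For each size 50 probes were changed, drawn at random from all 14058, with independent normal spread. Fewer probes were changed than were called in these real comparisons, and the shares describe probes of any brightness rather than these genes. Gene positions and promoters are from RefSeq, GRCm38.p6. The members and the other gene lists were chosen with earlier results of these data known. The rule for describing a gene in full took members with a probe below an adjusted p of 0.05 in any of 8 comparisons, both Rrm2 probes, and the 2 members of each role with the smallest p in DKO against control. From each other list it took up to 4 genes by the same p and any below the threshold, of which those that change a statement are named. Arrays of equal replicate number correlated above 0.1, in their deviations from the group means, in all 4 pairs of control and DKO (0.18 to 0.31). So did all 3 pairs of KO and DKO (0.13 to 0.24), and all of these pairs share a beadchip. A correlation above 0.1 held for 1 of 3 pairs of control and KO and 2 of 3 of hetDKO and DKO, and for 18 of 27 pairs over all groups. It also held for 12 of 26 pairs of unequal number on the same beadchip, and for 4 of 48 on different beadchips. Between control and DKO, pairs of unequal number on the same beadchip ran from 0.05 to 0.26. Replicate number was taken as a pairing between DKO and control or KO, which the labels do not state. It entered only the alternative with replicate number as a block, and the p-values of the main model leave it out. The part of the shared beadchip was not tested. Alternatives were replicate number and beadchip as blocks, each beadchip alone, other normalisations, offsets and filters, the dimmest probe of each gene, an erythroid covariate, array weights, and each array left out.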

Additional observations from a re-analysis of the deposited data

Results flagged for a closer look

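Among 76 groups of 4 arrays, 1 for each gene in control and in DKO hearts, 4 held an array far from the other 3 by Dixon's test, and chance alone would mark about 1 in 20. Control replicate 4 read 11.82 for Mcm3, against 11.28 to 11.34 on the other control arrays. The same array read 10.1 for Pola2, against 10.75 to 10.82. DKO replicate 3 read 14.42 for the bright probe of Mcm4, against 14.49 to 14.5, and 9.61 for Mcm7, against 10.2 to 10.28.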

How the results depend on the processing

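The 28 called differences of single genes kept their direction under all 722 alternatives run for them. They stayed below the threshold in 567 and missed it in 155, and the cause was not tested. Of 124 uncalled differences, 56 had the opposite sign in at least 1 alternative (142 of 2717 alternatives), none of these called, and 67 alternatives made a call. Rrm2 in DKO against control ran from -1.11 to -0.47 and missed the threshold within beadchip 2 alone (-0.95) and with its second probe (-0.47).

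Counts of the 38 genes called moved more. The share of all probes called under the same setting is given in brackets. The main counts were 2 in KO (7.58%), 4 in DKO (13.2%) and 5 in DKOhet against control (8.61%), 3 in DKO against hetDKO (7.86%) and 14 in the pooled comparison (26.4%). With replicate number as a block they were 0 (8.81%), 6 (16.9%), 5 (12.2%), 5 (9.43%) and 17 (31%). Under this block Mcm3 and Mcm7 were not called in KO (limma adjusted p = 0.0645 and 0.0634), nor Fen1 in DKO against hetDKO (limma adjusted p = 0.0544), and Dbf4 and Tyms were called in DKO. With beadchip as a block DKO gave 7 (16.5%) and DKO against hetDKO 5 (10.5%). Within beadchip 1 the counts were 0 in KO (1.8%), 1 in DKO (3.24%), 1 in DKO against hetDKO (3.12%) and 9 pooled (16.9%), and within beadchip 2 all 5 were 0 (0.0285% to 1.1%), each with fewer arrays. Fitting only the groups compared gave 0 in KO (2.51%), 2 in DKO (8.8%) and 0 in DKOhet (1.85%). DKO gave 7 with median scaling (12.6%), with the authors' value table (14.2%), with no background correction (14.2%) and with probes detected on all 16 arrays (16.8%). KO gave 1 with cyclic loess (7.26%), and with no filter KO gave 0 (3.65%) and DKO against hetDKO 1 (4.08%). The dimmest probes gave 3 in DKOhet (8.61%). The erythroid covariate gave 0 in KO (5.56%), 1 in DKO (10.4%), 3 in DKOhet (5.95%) and 1 in DKO against hetDKO (4.52%), and array weights gave 6 in KO (13.2%), 11 in DKO (20.9%) and 7 in DKO against hetDKO (14%). Median scaling also moved the split of all probes called in DKOhet against control from 607 lower of 1211 to 889 lower of 1378.

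Leaving out each array in turn gave 0 to 2 calls in KO, 1 to 7 in DKO, 0 to 7 in DKOhet, 1 to 3 in DKO against hetDKO and 12 to 16 in the pooled comparison. A count of 0 was given in KO without control replicate 1, 2 or 3 or KO replicate 2 or 3, and in DKOhet without DKOhet replicate 2. Without DKOhet replicate 1 or 2 the lone DKOhet array is assumed to vary like the other groups. HetDKO against control, DKO against KO, DKO against DKOhet and the difference of Rbpj effects gave 0 under every alternative run. Small differences in 2 to 4 arrays per group, and probes near background, limit what could be called.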
